A study of Mus musculus with 2 samples.

Results

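Ketone body use and synthesis was described here through 4 genes chosen by symbol: Bdh1, Oxct1 and Acat1, which encode the mitochondrial steps of ketone body breakdown, and Bdh2, a cytosolic relative in name. All 4 were found among the 55536 annotated genes, of which 22015 are protein coding and lie outside the mitochondrial genome, and they carry 19 annotated transcripts. Their RNA was measured in heart tissue of 25-day-old female B6CASTF1/J mice, 2 in number, a first-generation hybrid of a laboratory strain and a wild-derived strain. Total RNA (300 ng per library, with ERCC spike-in transcripts) was sequenced for animals 03 and 04, numbered as biological replicates 1 and 2. Both belong to the same group, and the label of the spike-in mix names stranded, ribosomal RNA-reduced libraries. The animals share a donor label and were taken as separate mice; no treatment, genotype or age was compared, so every value below is a level in this tissue or the spread between these libraries.

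Ketone bodies are made mainly in liver mitochondria during fasting and suckling and are burned in heart, muscle, kidney and brain. In the mitochondrion of a consuming cell, BDH1 oxidises beta-hydroxybutyrate to acetoacetate, the enzyme encoded by Oxct1 (also called SCOT) moves coenzyme A from succinyl-CoA onto acetoacetate, and ACAT1 splits the acetoacetyl-CoA into acetyl-CoA for the citric acid cycle. The steps catalysed by BDH1 and ACAT1 also serve synthesis in liver, whereas the OXCT1 step belongs to the consuming route.

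The genes of the consuming route differed widely in abundance in both hearts. Summed over all its transcripts, Oxct1 was among the most abundant protein-coding genes of the tissue, and Acat1 followed at a lower level. Bdh1 and Bdh2 lay near the detection level of 1 TPM (transcript abundance corrected for length and scaled to a fixed total in each library). Short non-coding transcripts carried a large part of the Oxct1 value, and the deposited quantifications disagreed on how much of Acat1 they carried. The sequences on which that division turns are therefore shown first. Each line gives, 5′ to 3′ from the GENCODE M21 transcripts, bases that are found in the named transcript and in no other transcript of its gene, in capitals, with up to 20 neighbouring bases shared with other transcripts in lower case.
Oxct1-203: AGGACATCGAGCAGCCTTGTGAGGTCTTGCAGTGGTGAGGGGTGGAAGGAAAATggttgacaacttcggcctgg
Oxct1-202: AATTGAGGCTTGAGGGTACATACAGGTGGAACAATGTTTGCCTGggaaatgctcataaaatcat
Oxct1-204: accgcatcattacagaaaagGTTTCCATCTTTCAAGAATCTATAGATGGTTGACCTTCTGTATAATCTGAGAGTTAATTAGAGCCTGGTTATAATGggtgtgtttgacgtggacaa
Acat1-203: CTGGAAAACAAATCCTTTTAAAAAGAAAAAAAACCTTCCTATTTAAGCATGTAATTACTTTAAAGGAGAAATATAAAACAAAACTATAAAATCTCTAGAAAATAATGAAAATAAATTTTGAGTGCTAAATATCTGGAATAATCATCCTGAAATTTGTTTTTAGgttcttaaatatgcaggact

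The stretch of Oxct1-203 spans 54 bases at chr15:4047259-4047312 of mm10 on the plus strand, an alternative first exon inside an intron of the coding transcript Oxct1-201. That of Oxct1-202 spans 44 bases at chr15:4142523-4142566, again a first exon within an intron, and that of Oxct1-204 spans 76 bases at chr15:4145801-4145876, an internal exon. For Acat1-203 the stretch covers 163 bases at chr9:53583595-53583757 on the minus strand, intron sequence of the coding transcript Acat1-201 that runs on into its penultimate exon. Apart from these bases and the junctions beside them, each of the 4 short transcripts consists of exon sequence that the coding transcript also holds. A read that falls outside the capitals and their junctions can thus be given to either.

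**Figure D1:**
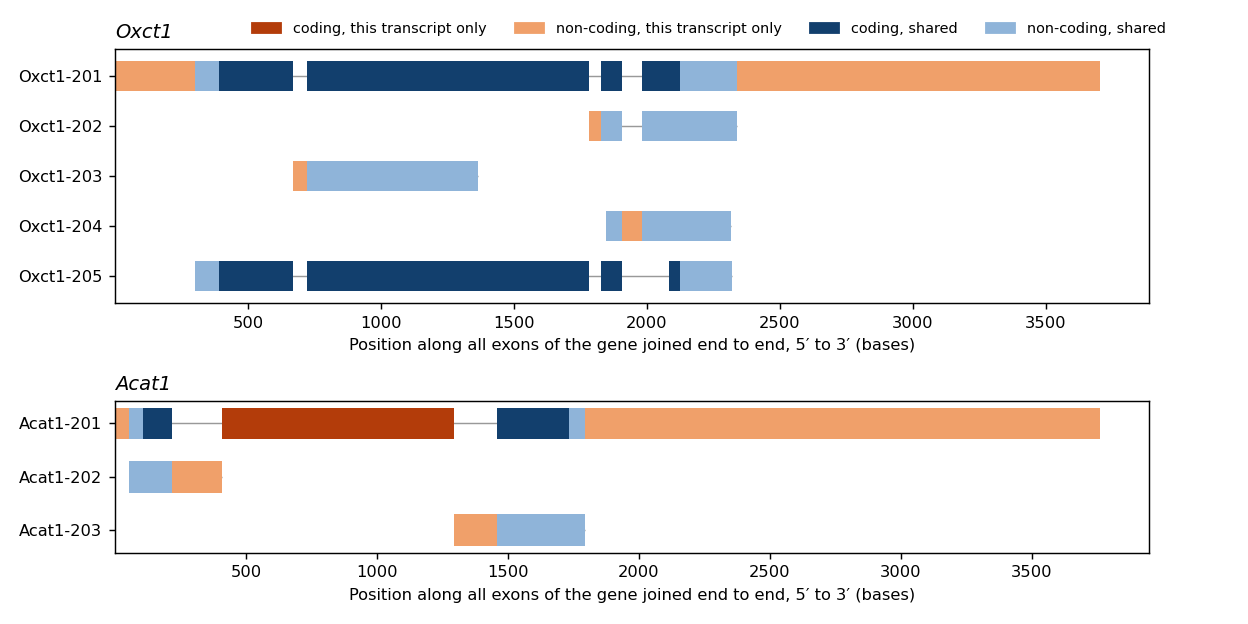
Exons of the 5 Oxct1 and 3 Acat1 transcripts of GENCODE M21, drawn to scale along all exons of each gene joined end to end (x axis, bases); colours show coding and non-coding bases and whether another transcript of the gene shares them. The short transcripts Oxct1-202, Oxct1-203, Oxct1-204 and Acat1-203 overlap the coding transcript except for 44, 54, 76 and 163 bases.

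Oxct1 encodes the transferase that moves coenzyme A onto acetoacetate in the consuming route. Oxct1 (ENSMUSG00000022186.14, chr15:4026383-4155344 of mm10, plus strand) had 511 TPM in replicate 1 against 479 TPM in replicate 2, averaging 495 ± 23.2 TPM (SD, n = 2), in the gene tables made from alignments. The deposited credibility intervals ran from 487 to 515 TPM in replicate 1 and from 457 to 483 TPM in replicate 2. The intervals did not overlap, but the read-based tables gave the opposite order, 565 TPM in replicate 1 against 633 TPM in replicate 2. Which animal had more Oxct1 TPM over all transcripts thus turned with the quantification. Coding transcripts alone were higher in replicate 1 in both, at 265 against 256 TPM by alignments and 317 against 309 TPM by reads. The read-based excess of replicate 2 lay in the short non-coding Oxct1-204, at 0.198 and 89.7 TPM in replicates 1 and 2. The alignment-based gene counts were 34526 and 34189 reads. Over all transcripts, Oxct1 ranked 96th of the 22015 protein-coding nuclear genes by alignments, above 99.6% of them, and 106th by reads. Coding transcripts alone were not ranked.

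Acat1 encodes the mitochondrial acetoacetyl-CoA thiolase, which also acts in isoleucine breakdown; it is not Soat1, the cholesterol-esterifying enzyme that shares the old name. Acat1 (ENSMUSG00000032047.5, chr9:53580522-53610382, minus strand) had 111 TPM in replicate 1 against 110 TPM in replicate 2, averaging 111 ± 0.764 TPM (SD, n = 2), from 12061 and 12371 counts. The credibility intervals, 106 to 114 and 105 to 114 TPM, overlapped almost entirely. Acat1 ranked 494th by alignments, above 97.8% of protein-coding genes, and 285th by reads.

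Bdh1 encodes the dehydrogenase that interconverts beta-hydroxybutyrate and acetoacetate in mitochondria. Bdh1 (ENSMUSG00000046598.15, chr16:31422280-31458901, plus strand) had 2.68 TPM in replicate 1 against 2.42 TPM in replicate 2, averaging 2.55 ± 0.184 TPM (SD, n = 2). These levels rest on 95 and 115 counts, and the credibility intervals of 2.06 to 3.82 and 1.90 to 3.49 TPM overlapped. Bdh1 ranked 9397th, below the median of 8.82 TPM over the 10972 protein-coding genes detected at 1 TPM or more in both animals. The first enzyme of the route was thus listed far below the enzymes that follow it.

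Bdh2 encodes a cytosolic member of the short-chain dehydrogenase/reductase family. Bdh2 (ENSMUSG00000028167.15, chr3:135281221-135304426, plus strand) had 1.43 TPM in replicate 1 against 1.71 TPM in replicate 2, averaging 1.57 ± 0.198 TPM (SD, n = 2), from 50 and 56 counts. Its credibility intervals were 1.14 to 2.02 and 1.31 to 2.27 TPM. All 4 genes were detected, at 1 TPM or more in both animals, as were 49.8% of protein-coding genes. Detection of Bdh1 and Bdh2 is close to that threshold. In whole tissue, fewer cells that express a gene and less RNA per cell cannot be told apart.

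**Figure D2:**
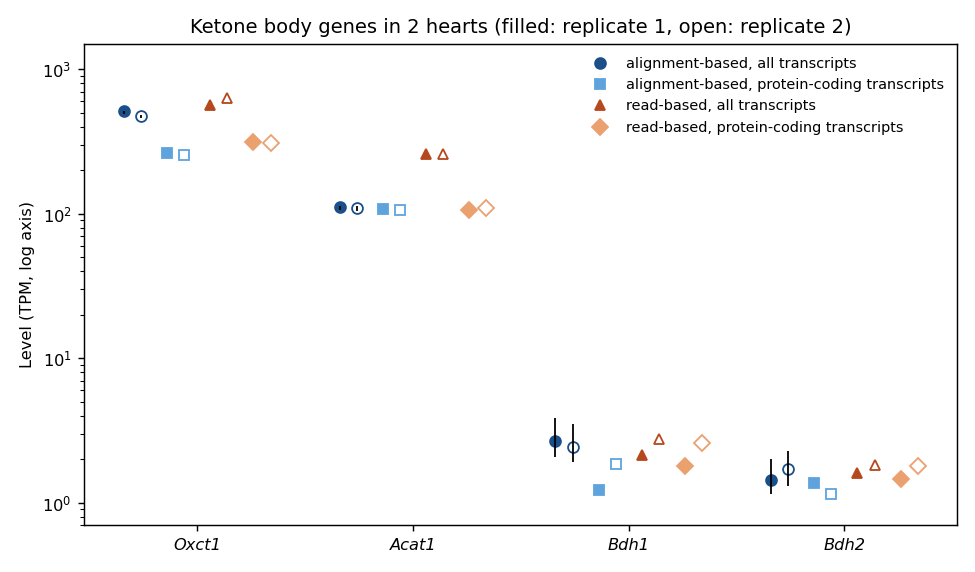
Level of each gene (y axis, TPM on a log axis) in replicate 1 (filled) and replicate 2 (open), from alignment-based and read-based tables, over all transcripts of the gene or only its protein-coding transcripts; vertical lines on the alignment-based gene values are the deposited credibility intervals. Oxct1 and Acat1 lie above 100 TPM by every measure and Bdh1 and Bdh2 between 1.14 and 2.74 TPM.

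Oxct1, Acat1 and the dehydrogenases lay apart by far more than the spread over animals, while Bdh1 and Bdh2 lay close. Oxct1 exceeded Acat1 by 2.20 in replicate 1 and 2.12 in replicate 2 on the log2 scale of TPM + 0.1, a mean of 2.16 ± 0.06, or 4.46-fold (2.31-fold in the read-based tables). Oxct1 exceeded Bdh1 by 7.52 and 7.57 on that scale, a mean of 7.55 ± 0.03, or 187-fold (237-fold read-based). Acat1 exceeded Bdh1 by 5.32 and 5.45, a mean of 5.39 ± 0.09, or 41.9-fold (103-fold read-based). Over coding transcripts alone the folds over Bdh1 were 162 and 140 for Oxct1 and 66.8 and 48.2 for Acat1, by alignments and reads. The SD of these on the log2 scale was 0.42 and 0.38 for Oxct1 and 0.39 and 0.33 for Acat1, wider than over all transcripts. The order of Oxct1, Acat1 and then the dehydrogenases was the same in both animals and in both quantifications, whether all or only coding transcripts were summed. Bdh1 exceeded Bdh2 by 0.86 and 0.48, a mean of 0.67 ± 0.27. The credibility intervals of Bdh1 and Bdh2 did not overlap in replicate 1 (2.06 to 3.82 and 1.14 to 2.02 TPM) but did in replicate 2. By reads the difference was 0.40 and 0.56 over all transcripts, and 0.27 and 0.49 over coding ones. With coding transcripts alone by alignments, however, it was -0.14 in replicate 1 and 0.65 in replicate 2. The order of these low genes was therefore not settled by the 2 libraries. With 2 animals the smallest p of an exact test that flips signs is 0.5, and none was run.

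Summing only protein-coding transcripts (an alternative chosen after the data were seen) brought Oxct1 and Acat1 closer. Coding Oxct1 transcripts had 265 TPM in replicate 1 against 256 TPM in replicate 2 in the alignment-based tables, 51.9 and 53.5% of the gene. In the read-based tables, made from 1 FASTQ file per library, they stood at 317 and 309 TPM. Coding Acat1 transcripts stood at 108 and 107 TPM in the alignment-based tables and at 106 and 109 TPM in the read-based tables. Oxct1 exceeded Acat1 by 1.28 ± 0.03 on the log2 scale over coding transcripts, 2.43-fold in place of 4.46-fold, and by 1.53 ± 0.06 in the read-based tables. For Bdh1 the coding level was 1.23 and 1.84 TPM, and for Bdh2 1.37 and 1.14 TPM, in replicates 1 and 2 of the alignment-based tables.

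The quantifications agreed on Acat1 only in its coding transcript. Over all transcripts Acat1 stood at 111 TPM by alignments and 259 ± 0.355 TPM by reads, a difference of -1.23 (alignment-based minus read-based, log2). Over detected protein-coding genes the median of that difference was -0.23, with quartiles of -0.39 and -0.12. Acat1 lay below the lower quartile. The difference was -0.27 for Oxct1, -0.12 for Bdh2, at the upper quartile, and 0.07 for Bdh1, above it. Quartiles by definition leave many genes outside, so this position alone does not set Acat1 apart. Over coding transcripts alone it was -0.01 for Acat1. The excess in the read-based tables lay in Acat1-203, the 500-base transcript shown above. Acat1-203 had 3.82 and 3.47 TPM in replicates 1 and 2 by alignments, on 51.7 and 48.6 counts, against 153 and 150 TPM by reads, on 913 and 940 counts. Its share of the gene was 3.43 and 3.15% by alignments and 59.0 and 57.9% by reads. The values were alike in the animals within each quantification, so the gap lies between the quantifications. Acat1-201 held 96.6 and 96.9% of the gene by alignments and 99.6% of the alignment-based counts in each library.

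For Oxct1 the coding transcript led in all tables, but with about as much TPM again in short transcripts. Oxct1-201, of 3527 bases and 17 exons, held 51.1 and 52.9% of the gene in replicates 1 and 2 by alignments and 55.4 and 48.3% by reads. The same transcript, the longest of the gene, took 87.6 and 88.7% of the alignment-based counts of Oxct1. Oxct1-203 stood at 118 and 97.1 TPM by alignments, 23.0 and 20.3% of the gene, and at 248 and 235 TPM by reads, 43.9 and 37.1%. Oxct1-202 stood at 128 and 125 TPM by alignments and was listed at 0 by reads in both animals. Oxct1-204 was listed at 0 by alignments in both animals, and at 0.198 and 89.7 TPM by reads. Apart from the stretches shown, Oxct1-202 and Oxct1-204 lie in the same 3 exons of Oxct1-201. The alignment-based tables gave reads to Oxct1-202 alone of this pair, the read-based ones to Oxct1-204 alone, nearly all of them in replicate 2.

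The remaining coding form of Oxct1 was rare. Oxct1-205 lacks the exon of 102 bases at chr15:4147565-4147666, which shortens the coding length to 1458 bases, against 1560 bases in Oxct1-201. The exon is shown because its presence separates the coding forms, with its bases in capitals and 20 bases of each neighbouring exon in lower case.
Oxct1-201: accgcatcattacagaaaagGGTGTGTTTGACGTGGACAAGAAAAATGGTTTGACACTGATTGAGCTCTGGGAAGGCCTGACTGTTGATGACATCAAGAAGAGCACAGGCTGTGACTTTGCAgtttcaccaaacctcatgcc

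Oxct1-205 stood at 4.27 and 2.82 TPM in replicates 1 and 2 by alignments, 0.83 and 0.59% of the gene, and at 3.53 and 2.28 TPM by reads. The form with the exon exceeded it in every table. The form that skips the exon has 25 runs of 31 bases that no other transcript of the 4 genes holds, all across the junction left by the exon.

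**Figure D3:**
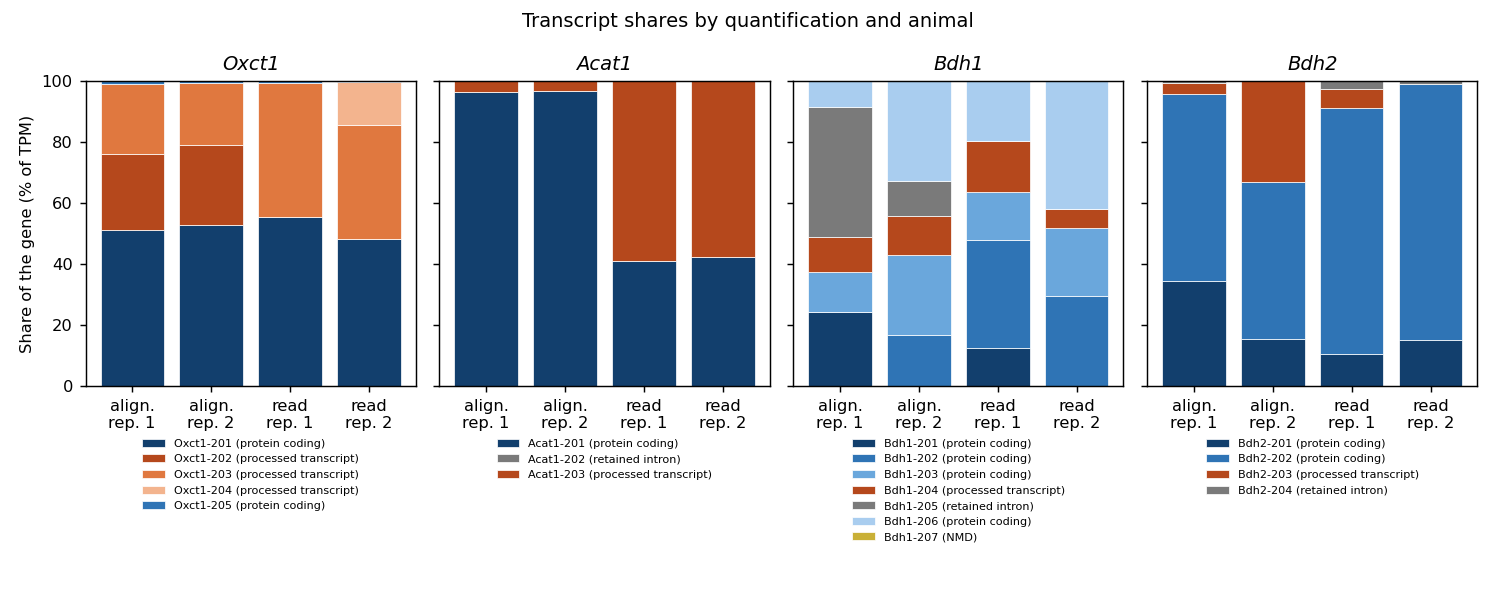
Share of each gene's TPM held by its annotated transcripts (y axis, %) in the alignment-based and read-based tables of replicates 1 and 2; blue bars are protein-coding transcripts, orange processed transcripts and grey retained introns. Oxct1-201 holds between 48.3 and 55.4% in all 4 bars, whereas Acat1-203 takes 3.43 and 3.15% by alignments and 59.0 and 57.9% by reads.

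The transcripts of the dehydrogenases could be divided only roughly at their depth. Bdh1-201, Bdh1-202 and Bdh1-203 hold the same coding length of 1029 bases behind different first exons. By alignments Bdh1-205, a retained-intron transcript of 438 bases, led in replicate 1 with 42.6% of the gene on 13.1 counts, and Bdh1-206, a coding transcript, led in replicate 2 with 32.9% on 19.7 counts. Bdh1-202 led in replicate 1 by reads, at 35.4%, and Bdh1-206 in replicate 2, at 41.9%. Bdh1-203 had 36.2 and 67.1 counts by alignments, the most of any Bdh1 transcript in both animals. The leading Bdh1 transcript by TPM therefore differed between the animals in each quantification. Bdh2-202 led in all tables, at 61.4 and 51.4% of the gene by alignments and 80.6 and 83.8% by reads, on 31.8 and 32.9 alignment-based counts. Bdh2-203, which is non-coding, stood at 3.62% in replicate 1 and 33.2% in replicate 2 by alignments.

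One transcript led in all 4 tables for 2 of the 4 genes, Oxct1 and Bdh2, against 67.0% of the 10272 genes that reached 1 TPM and have more than 1 annotated transcript. Among protein-coding genes of that set, coding transcripts held a median of 92.0% of the TPM by alignments, with a lower quartile of 75.3%. The Oxct1 shares of 51.9 and 53.5% lay below that quartile, and those of Acat1, 96.6 and 96.9%, above the median. Bdh1 was below the quartile in replicate 1 only (45.9 and 76.0%), and Bdh2 in replicate 2 only (95.8 and 66.7%). By reads the median was 89.9% and the lower quartile 71.6%. The read-based shares of Acat1 (41.0 and 42.1%) and Oxct1 (56.0 and 48.7%) lay below that quartile. Those of Bdh1 (83.0 and 93.7%) and Bdh2 (91.0 and 98.9%) lay above it. Of the 19 transcripts, 9 are protein coding, and Acat1-202 and Bdh1-207 were listed at 0 TPM in every table.

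Reads could be confused with those of other genes to a limited extent. No run of 31 bases in the Acat1 transcripts occurred in another annotated gene, on either strand. For Oxct1, 438 of 3723 such runs (11.8%) also lay in BC037032, a non-coding gene on the opposite strand that covers the Oxct1 start and stood at 4.30 and 3.91 TPM in replicates 1 and 2. For Bdh1, 481 of 3901 runs (12.3%) also lay in Gm15743, Cog7 or Stx11; Gm15743, an antisense gene over the first exons of Bdh1-202 and Bdh1-203, had 1 and 2 counts. For Bdh2 it was 4 of 4247 runs. The counting is not stated to use strand, so reads of a gene and its antisense partner may not be told apart. The hybrid carries a wild-derived allele that was counted against mm10, and its effect on these levels was not tested.

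None of the 4 genes was called between the animals. Counts were scaled by TMM and compared as a ratio, replicate 1 over replicate 2, and a gene was called at 1.5-fold or more in either direction. There is 1 library on each side, so no p-value was computed and the intervals cover counting error only. The ratio was 0.978 for Oxct1 (95% exact binomial interval 0.963 to 0.993) and 0.944 for Acat1 (0.921 to 0.968). It was 0.800 for Bdh1 (0.603 to 1.06) and 0.865 for Bdh2 (0.578 to 1.29). Of 15839 genes averaging 10 counts or more, 9.72% were called, against 0 of these 4. The interval left out a ratio of 1 for Oxct1 and Acat1, 2 of 4, as it did for 29.9% of all genes. With spike-in totals as the scale these ratios were 1.05 and 1.02, so the side of 1 on which they fall depended on the scaling. For Bdh1 and Bdh2 a difference of the size seen was not detectable at this depth. For Oxct1, Acat1 and Bdh1 the ratio of scaled counts was below 1 while the alignment-based TPM was higher in replicate 1, and the cause was not tested.

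**Figure D4:**
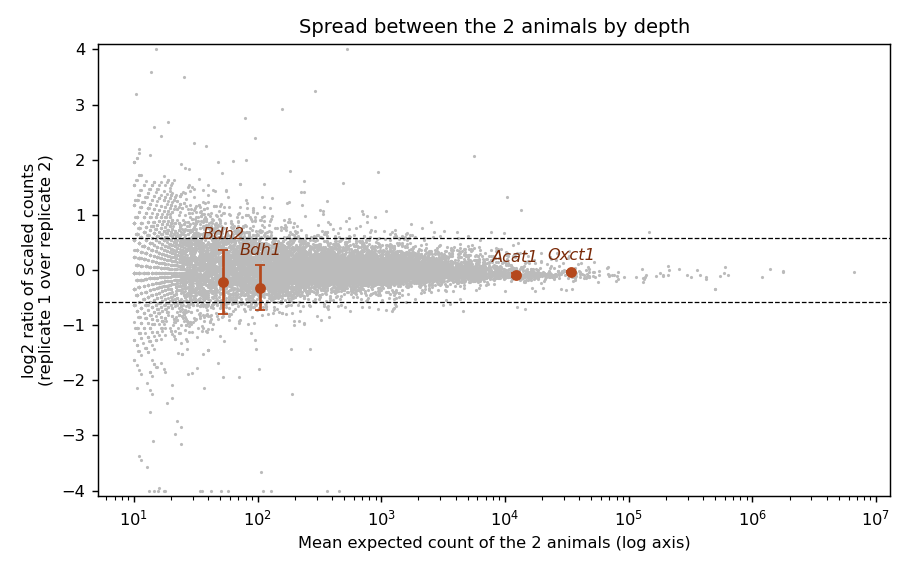
Ratio of TMM-scaled counts, replicate 1 over replicate 2 (y axis, log2, drawn within 4 of 0), against mean expected count (x axis, log axis) for genes averaging 10 counts or more, with counts in both libraries; dashed lines mark 1.5-fold and bars are 95% exact intervals. The 4 genes lie inside the dashed lines at ratios of 0.978, 0.944, 0.800 and 0.865.

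The tissue was checked on marker lists. All 6 cardiomyocyte markers were detected, at a median of 5114 and 5207 TPM in replicates 1 and 2, and all 5 skeletal muscle markers lay below 1 TPM in at least 1 animal. Hepatocyte markers, by contrast, were low in both hearts and higher in replicate 2. The 10 hepatocyte markers summed to 2.82 TPM in replicate 1 against 30.3 TPM in replicate 2, all 10 were called lower in replicate 1, and Apob, Fga, Fgb and Cyp3a11 were listed at 0 TPM there. Alb, serum albumin, had 2 counts in replicate 1 against 907 in replicate 2. Liver is the main site of ketone body synthesis and expresses Bdh1 and Acat1. The part of that RNA in the Bdh1 and Acat1 levels was not tested. Fibroblast, endothelial and macrophage markers had medians of 72.0, 43.9 and 5.52 TPM in replicate 1, against 56.1, 36.5 and 4.54 TPM in replicate 2. Of the brown fat markers Ucp1 had 3.14 TPM in replicate 1 against 5.83 TPM in replicate 2 and was called, whereas Cidea, the most abundant of the list, had 17.7 TPM in replicate 1 against 16.4 TPM in replicate 2 and was not. Of the white fat markers Adipoq had 1.14 TPM in replicate 1 against 1.98 TPM in replicate 2 and was called. Plin1, the most abundant of that list, had 2.01 TPM in replicate 1 against 2.09 TPM in replicate 2 and was not. All 3 erythroid markers were detected, at medians of 3512 and 3191 TPM in replicates 1 and 2, and none was called.

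Relatives of these enzymes lay below Oxct1 and Acat1, and 3 of 6 were detected. Oxct2a and Oxct2b, the testis forms of the transferase, had 1 and 0 counts (Oxct2a) and 0 counts in both animals (Oxct2b); a count of 0 allows 0.0698 and 0.0702 CPM (counts scaled to a fixed library total) in replicates 1 and 2. Acat2, the cytosolic thiolase of the sterol route, stood at 2.33 and 2.61 TPM and its close copy Acat3 at 0 and 0.24 TPM. Counting could split reads between these copies, and likewise between Oxct2a and Oxct2b, so their values are uncertain. Aacs, which activates acetoacetate in the cytosol for lipid synthesis, stood at 1.17 and 1.24 TPM, and Hmgcs1, the cytosolic synthase of the sterol route, at 17.8 and 18.4 TPM.

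Carriers that admit ketone bodies were led by the monocarboxylate transporter MCT1, and 5 of 6 genes of the list, chaperones included, were detected. Slc16a1, which encodes it, stood at 67.5 and 67.4 TPM in replicates 1 and 2, and Bsg, the chaperone that brings it to the membrane, at 475 and 458 TPM. Slc16a7 (MCT2) stood at 5.11 and 5.20 TPM, Emb, another chaperone, at 4.24 and 4.35 TPM, and Slc16a6 at 2.97 and 2.41 TPM. Slc16a3 (MCT4), a lactate exporter of glycolytic cells, stood at 0.79 and 0.30 TPM on 51 and 23 counts, and was called with a ratio of 2.15 (1.29 to 3.68).

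Genes that sense or regulate ketone metabolism ranged from no counts to high levels, with 4 of 7 detected. The receptors Hcar2 and Ffar3 had 3 and 1 counts (Hcar2) and 0 counts in both animals (Ffar3), and the fasting hormone Fgf21 also had 0 counts. Sirt3, a mitochondrial deacetylase, stood at 20.9 and 22.8 TPM, Ppara, the fatty acid receptor that drives ketogenesis in liver, at 22.6 and 18.5 TPM, and the coactivator Ppargc1a at 50.6 and 39.3 TPM. Pdk4, which restrains pyruvate oxidation, led the list at 229 and 98.9 TPM and was called with a ratio of 2.13 (2.08 to 2.19). Pdk4 and Slc16a3 were the 2 called of 26 pathway genes with enough counts, beside the 9.72% of all genes.

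The steps that supply succinyl-CoA or take up acetyl-CoA ranged from below Acat1 to above Oxct1 in the alignment-based tables. Succinyl-CoA, which Oxct1 consumes, is made by 2-oxoglutarate dehydrogenase and handled by succinyl-CoA ligase, and acetyl-CoA enters the citric acid cycle through citrate synthase. The list for these steps also held Sdha and Sdhb of succinate dehydrogenase, which belong to none of them, at means of 613 and 477 TPM. All 8 listed genes, Sdha and Sdhb included, were detected, with a median of 397 ± 1.36 TPM. Ogdh was highest at 649 and 642 TPM in replicates 1 and 2, Suclg2 lowest at 51.2 and 49.8 TPM, and Cs stood at 474 and 470 TPM. Of the other thiolases 4 of 5 were detected. Hadhb, of fatty acid oxidation, was highest at 635 and 636 TPM, and Acaa1b lowest at 0.69 and 0.86 TPM. Acat1 thus stood below Hadhb and Acaa2 (500 and 502 TPM) and near Scp2 (115 and 113 TPM). In all, 24 of the 32 further pathway genes were detected, beside 49.8% of protein-coding genes.

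**Figure D5:**
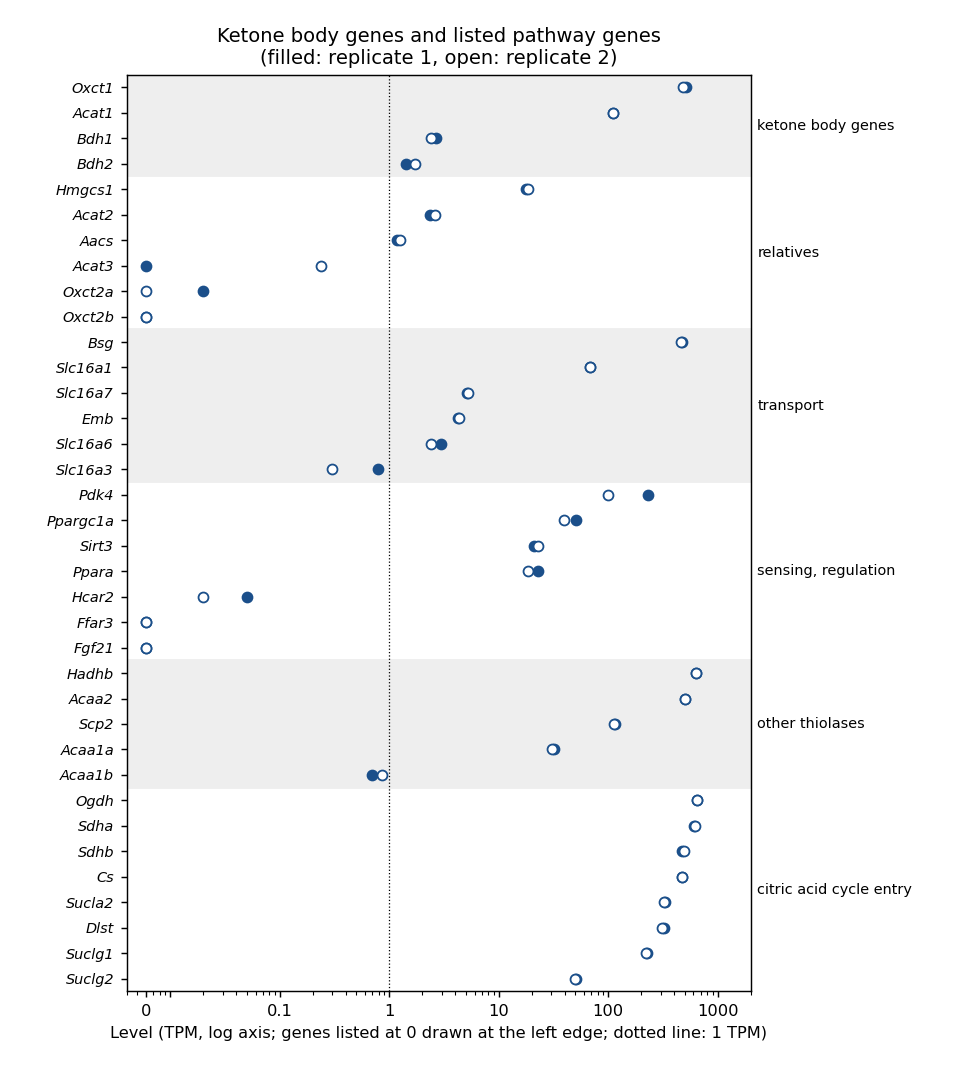
Level of the 4 ketone body genes and 32 further pathway genes (x axis, TPM on a log axis, with genes listed at 0 at the left edge) in replicate 1 (filled) and replicate 2 (open), grouped by list. Oxct1 lies among the citric acid cycle genes, and Bdh1 and Bdh2 lie just above the dotted line at 1 TPM.

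By level in the 2 animals alone, the protein-coding genes nearest to Oxct1 were Ech1 (514 and 496 TPM), Atp5d and Acaa2. Likeness was measured as the distance of log2(TPM + 0.1) over these 2 samples, which was 0.05 for Ech1. Those nearest to Acat1 were Drap1, Rpl14 and Map3k20, to Bdh1 Ice2, Tada2a and Clip3, and to Bdh2 Cdk5rap2, Prr3 and Il17d. With 2 samples of 1 group this likeness is one of level only.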

How the data were processed

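Heart RNA of 2 animals was analysed from gene and transcript tables, which the authors derived from transcriptome alignments, and from a further transcript table per library built from FASTQ reads. The listings deposited with the files name mm10 and annotation M21 for all tables. Which tools made them is not given here or in the labels. Expected counts and estimated counts, per the file headers, are reads assigned to a gene or transcript without normalization. TPM was deposited as abundance corrected for length, scaled over all entries including spike-ins. The percent column of the deposited transcript tables is each transcript's part of its gene. The score columns are the deposited bounds of credibility intervals, of unstated level.

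Gene totals were 42966739 counts in replicate 1 and 42720824 in replicate 2. Expected counts were rounded and scaled by TMM (edgeR 4.0.16, R 4.3.3). Ratios were computed across all genes averaging 10 counts or more, with exact Clopper-Pearson intervals at 95%. That step was also run on simulated counts that varied by counting error only, without TMM scaling. The simulation therefore says nothing of the spread between these animals. Intervals and limits at 0 (3 counts of the total) cover counting error only. Read-based tables were summed to genes. For ratios of TPM, 0.1 was added before taking log2. Other steps ran under Python 3.11.15 (matplotlib 3.10.9, pandas 2.3.3, scipy 1.17.1, numpy 2.4.6). Alternatives were read-based values, posterior means, rescaled TPM, other thresholds and pseudocounts, scaling by spike-in totals, total counts or DESeq2 1.42.0, coding transcripts alone, and each animal left out.

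Named genes were the 4 members with their transcripts, all genes of the relatives and transport lists, the highest and lowest of each other pathway list, called pathway genes and the 3 nearest in level. The other sensing genes, Cs, Scp2 and the cell type markers that are named were picked with their values in view; the remaining called markers are given as counts. The members and lists were chosen with earlier results of these data known. The labels' numbers alone mark the samples as separate animals, so the spread may be technical. Read alignments and signal tracks were not used here, and a list of synthesis genes is not reported here.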

Additional observations from a re-analysis of the deposited data

How the results depend on the processing

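Of 120 alternative values for 22 results, 76 were labelled the same as the main value and 44 as moved. Levels, ratios and shares were judged against the spread or interval of the main value. Counts of genes have neither, and 1755 genes past the fold by read-based counts, in place of 1539, were labelled the same. No mean log2 difference between the 4 genes changed sign. The 34 values with an animal left out are among those 76, but with 2 animals a mean cannot move past its own SD. These values therefore say nothing of stability. The share of Bdh1-205, 27.0% on average, was 11.4 and 42.6% in the single animals. Main values are in the report. The levels of Oxct1, Acat1, Bdh1 and Bdh2 were 1270, 284, 6.54 and 4.03 TPM when TPM was rescaled to protein-coding nuclear genes. Read-based levels were 599 TPM for Oxct1 and 259 TPM for Acat1, and posterior mean levels 110 TPM for Acat1 (109.7) and 2.78 TPM for Bdh1. Over coding transcripts (chosen after seeing the data, as were shares of counts) the levels were 261, 107.1, 1.53 and 1.25 TPM by alignments, and 313, 107.8 and 2.17 TPM by reads for Oxct1, Acat1 and Bdh1. On the log2 scale Oxct1 over Acat1 was 1.21 read-based, and 1.28 and 1.53 over coding transcripts (alignments, reads). Oxct1 over Bdh1 was 7.89 read-based, 7.40 with posterior means, 7.13 with a pseudocount of 1, and 7.34 and 7.13 over coding transcripts. Acat1 over Bdh1 was 6.68, 5.25, 4.98, 6.06 and 5.59 under the same settings. Bdh1 over Bdh2 was 0.25 and 0.38 over coding transcripts. Between the animals the ratio was 1.004 and 1.05 for Oxct1 and 0.969 and 1.02 for Acat1 with total counts and spike-in totals, on the other side of 1 in 3 of these 4 and never past 1.5-fold. Genes past the fold were 8363 without a minimum count, 231 at a mean count of at least 100 and 510 at 2-fold, in place of 1539. The share of Oxct1-201 was 88.2% of counts, of Acat1-201 41.6% read-based and 99.6% of counts, of Bdh1-205 0% read-based and of Bdh2-202 82.2% read-based. At 5 TPM 1 relative and 3 transport genes were detected, in place of 3 and 5. The cause of these shifts was not tested. No paired analysis was possible because there is a single group. Depth limits Bdh1 and Bdh2, whose transcripts rest on fewer than 70 counts each.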
